A study of Homo sapiens with 4 samples.

Results

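The p53 pathway genes described here are 30 named human genes that are textbook targets or regulators of the tumour suppressor p53. They were chosen by name, with earlier results of these data known, and 30 of 30 were found among the 19739 coding genes measured. The transcription factor p53 is stabilised by DNA damage and other stresses, binds response elements in DNA and switches on genes for growth arrest, repair, cell death and its own degradation. The last group forms a feedback loop, because MDM2, a ubiquitin ligase made from a p53 target gene, marks p53 for destruction. In liver cells p53 is known for restraining growth, and it is also known to influence ferroptosis, the iron-dependent cell death driven by lipid peroxides.

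RNA was sequenced from 2 human cell lines that carry the names of liver cancer lines, each with and without a treatment of 24 h. The groups were cells labelled HepG2 given RSL3@O2-ICG NBS with low-frequency ultrasound, untreated cells labelled HepG2, Huh7 cells given the same treatment, and untreated Huh7 cells. RSL3 is an inhibitor of GPX4, the enzyme that reduces lipid hydroperoxides. Each group held 1 library, so no value has an SD, and no test within a line was possible. No sample analysed here received ultrasound, the carrier or RSL3 alone. The labelled identity of the HepG2 libraries did not match their liver markers. All 10 hepatocyte markers examined were under 1 FPKM (fragments per kilobase of transcript, scaled to sequencing depth) in the treated and untreated libraries labelled HepG2, with a highest value of 0.238 and 0.449 FPKM. The same markers stood at 4.33 to 711 FPKM in treated Huh7 and at 8.71 to 883 FPKM in untreated Huh7. These cells are named by their label throughout. Depth inferred from low values was 22900000 to 26400000 fragments per library. The step taken as 1 fragment rested on 46 to 54 values per library. Of the values under 4 steps, 48.1% to 53.6% lay within 0.1 of a whole number of steps. The depth, and each counting interval that uses it, is thus approximate. At that depth 1 FPKM over 1 kb rests on 23 fragments in either treated library and 26 in either untreated one, with exact 95% Poisson intervals of 14.6 to 34.5 and 17.0 to 38.1 that cover counting error only. The leukocyte marker PTPRC was listed at 0 in all 4 libraries. The summed level of 4 leukocyte markers was 21 FPKM in the treated and 1.43 FPKM in the untreated library labelled HepG2, almost all of it CD68, a lysosomal glycoprotein that many cell types make. In Huh7 it was 6.81 FPKM treated and 19.7 FPKM untreated. For 5 fibroblast markers the sums were 2.6 and 1.98 FPKM in treated and untreated cells labelled HepG2, and 10.2 and 37.5 FPKM in treated and untreated Huh7. The part of such markers in the results was not tested.

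Matches to the p53 response element are shown first for MDM2. Of the 30 genes, MDM2 had the highest treated to untreated ratio of FPKM + 1 in cells labelled HepG2. In plain FPKM, PLK3 (2.56) and BTG2 (2.49) were above MDM2 (2.46) there. The stretch lies in MDM2 just before the start of the internal RefSeq transcripts (GRCh38.p14, plus strand, chr12:68808903-68809000). Capitals mark both matches to the p53 response element, searched as 2 copies of the p53 consensus decamer side by side, 20 bases in all, with up to 3 mismatches. The element reads the same on both strands.
MDM2 internal promoter: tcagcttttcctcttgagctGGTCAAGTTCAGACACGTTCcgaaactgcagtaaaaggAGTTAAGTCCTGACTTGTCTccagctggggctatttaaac

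RefSeq promoter windows of 300 bases (250 before and 50 after a transcript start, GRCh38.p14) were at hand for 21 of the 30 genes. Those without one were RRM2B, TNFRSF10A, TNFRSF10B, TNFRSF10C, TNFRSF10D, GADD45A, PHLDA3, TP53INP1 and CMBL. With up to 3 mismatches, 7 of the 21 held a match, against 6.39% of the 27305 genes in the table. With up to 2 mismatches, 4 of the 21 did (MDM2, FAS, DDB2 and AEN), against 0.82% of all genes. In the other 14 genes these letters were not found in the window. A match is a description of the letters and not a shown site of binding. The 21 genes had 33 windows and the 27305 genes had 35116, so the share of genes also depends on windows per gene. Counted by window, 8 of 33 held a match with up to 3 mismatches, against 5.2% of all windows. The 30 genes were named as p53 targets or regulators, so these shares are not an independent test. The matches outside MDM2 are printed below to show how they differ from the consensus, with matching bases in capitals and mismatches in lower case. They lie at chr11:47214969-47214988 (DDB2), chr10:88991309-88991328 (FAS), chr15:88621306-88621325 (AEN), chr6:109009018-109009037 (SESN1, minus strand), chr17:74872996-74873015 (FDXR, minus strand) and chr3:14178570-14178589 (XPC, minus strand).
DDB2: AAGCTgGTTTGAACAAGCCC
FAS: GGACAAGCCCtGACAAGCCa
AEN: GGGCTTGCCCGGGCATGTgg
SESN1: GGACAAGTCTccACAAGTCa
FDXR: GGGCAgGagCGGGCTTGCCC
XPC: GAAtTTGCCCAGACAAGCaa
DDB2 has the closest match, with 1 mismatch.

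In cells labelled HepG2, 4 of the 30 genes were at least 2-fold higher after treatment and 1 was at least 2-fold lower. The higher ones were MDM2, the death receptor gene TNFRSF10B, the stress kinase gene PLK3 and the DNA damage sensor gene XPC. The lower one was PLK2, a kinase gene of the same family as PLK3. In Huh7 none of the 30 genes passed 2-fold in either direction. Ratios are log2((treated FPKM + 1)/(untreated FPKM + 1)), a scale that understates the differences of genes with low FPKM. A gene was considered in a line where at least 1 of its 2 libraries reached 1 FPKM. That left out TP53INP1, SPATA18 and EDA2R in cells labelled HepG2. In Huh7 it left out FAS, TNFRSF10C, PHLDA3, CMBL, SPATA18 and EDA2R.

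The count in cells labelled HepG2 was 4 of 27 considered genes higher (14.8%), beside 6.7% of all 11843 coding genes considered there. For lower genes it was 1 of 27 (3.7%), beside 2.43% of all genes. These shares are descriptions and not a test, since the genes were chosen with earlier results known. In Huh7 the counts were 0 of 24 higher and 0 of 24 lower, beside 3.88% and 2.19% of 11945 genes. At a threshold of 1.5-fold, 8 of 27 were higher in cells labelled HepG2 (29.6%), beside 19.2% of all genes, with BTG2, BAX, FDXR and TNFRSF10D added to the 4 named above, and 1 of 27 was lower (3.7%), beside 8.76%. In Huh7, 1 of 24 was 1.5-fold higher (RRM2B) and 1 of 24 lower (PLK2), each 4.17%, beside 15.4% and 7.63% of all genes. The median log2 ratio was 0.33 over the 27 genes and 0.09 over all genes in cells labelled HepG2. In Huh7 it was 0.03 over the 24 genes and 0.10 over all genes. Division by median-of-ratios size factors moved the median of all genes to −0.02 in cells labelled HepG2 and to −0.03 in Huh7, and the medians of the p53 genes to 0.22 and −0.10. The p53 genes thus stood above the median of all genes in cells labelled HepG2 under both scalings. In Huh7 their median lay within 0.1 of that of all genes under both scalings. That is the tolerance used here for a median, so no direction is read there.

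A linear model with cell line as a block (limma, all 4 libraries, 13030 coding genes) asked whether both lines moved alike. None of the 28 p53 genes that entered it passed an adjusted p of 0.05 (Benjamini-Hochberg over all genes), beside 0% of all genes. At an unadjusted p under 0.05 there were 2 of the 28 and 1534 of all genes. The smallest adjusted p of a p53 gene in limma was 0.259, for PLK2, with a mean log2 ratio of −0.95 (SE 0.242). MDM2 was next, with a mean log2 ratio of 0.75 (SE 0.294) and an adjusted p of 0.382 in limma. The model has 1 residual degree of freedom per gene beside the prior, and it says nothing of repeat cultures. FAS, TNFRSF10C, PHLDA3, CMBL and TP53INP1 entered it though they were under 1 FPKM in both libraries of 1 line. For these the model cannot say whether both lines moved alike. The other 23 genes were considered in both lines.

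**Figure D1:**
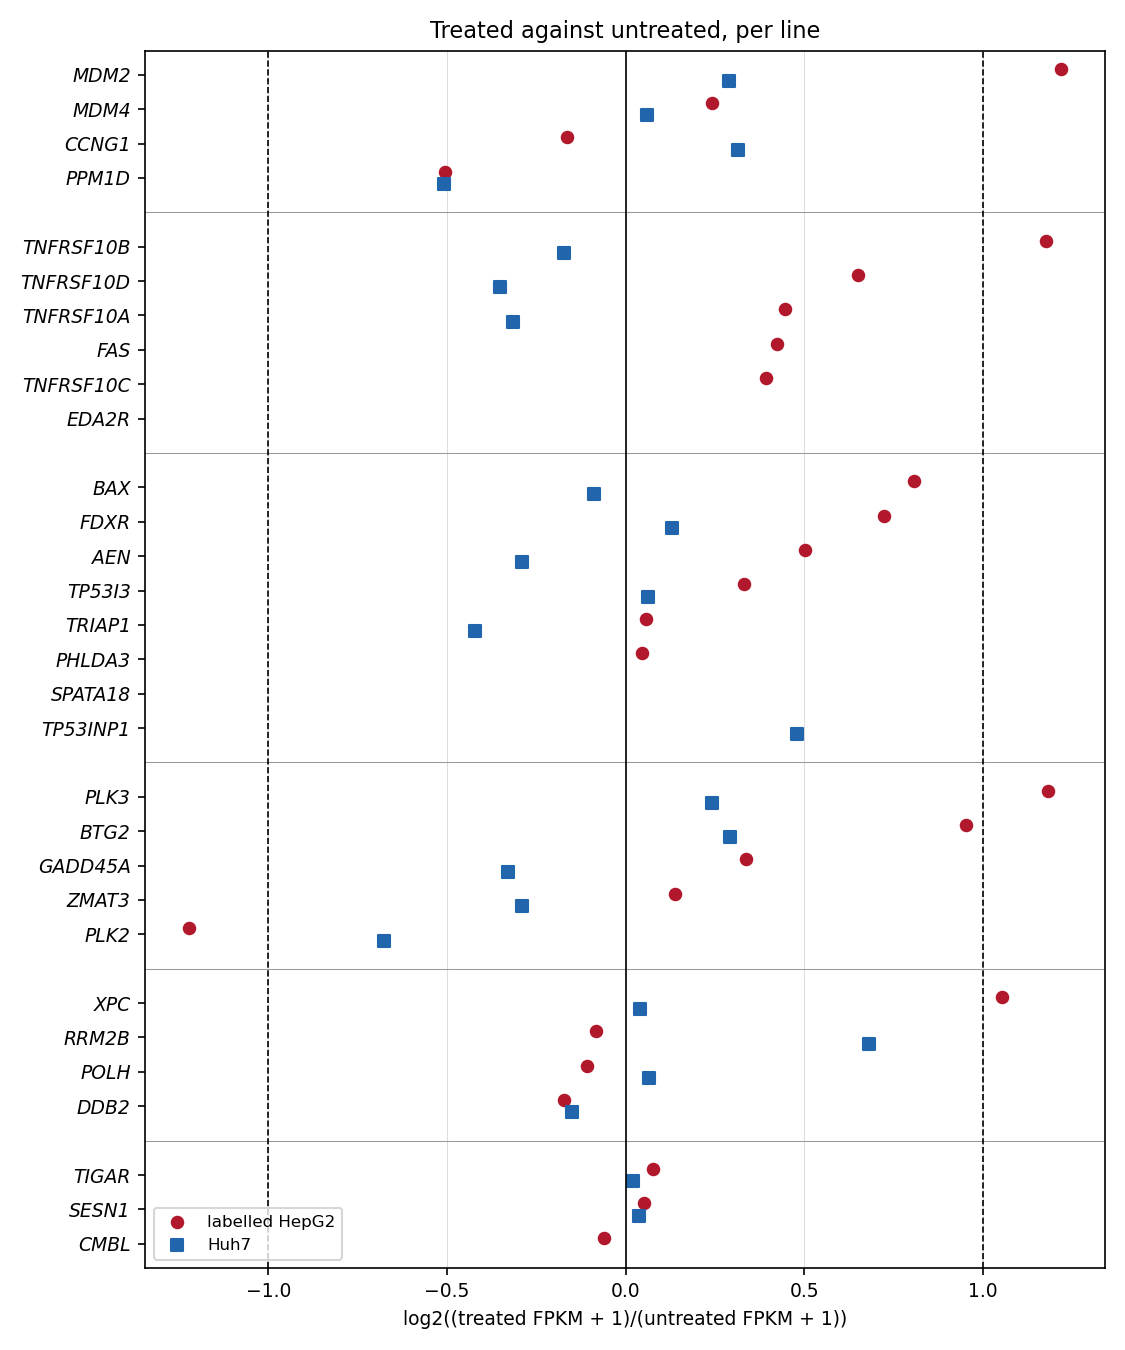
Treated against untreated log2 ratios (x axis, log2 of FPKM + 1) of the p53 pathway genes, grouped by role as in the text, with circles for cells labelled HepG2, squares for Huh7 and dashed lines at 2-fold. MDM2, TNFRSF10B, PLK3 and XPC lie past the upper line and PLK2 past the lower line for cells labelled HepG2, no square lies past either line, and genes under 1 FPKM in both libraries of a line have no point there.

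MDM2 and MDM4 encode related proteins that bind p53 and hold it down, MDM2 as the active ubiquitin ligase and MDM4 as a partner that masks p53. MDM2 (ENSG00000135679, GRCh38 chr12:68808177-68850686) stood at 24.4 FPKM in treated and 9.92 FPKM in untreated cells labelled HepG2, and at 13.2 FPKM in treated and 10.6 FPKM in untreated Huh7. The treated library labelled HepG2 was the highest of the 4, and both untreated libraries were close to each other. Of the exonic bases of MDM2, 5.9% overlap an antisense gene and 3.3% a processed pseudogene on the same strand. In bulk RNA, fewer cells of a type and less RNA per cell cannot be told apart. The log2 ratio was 1.22 in cells labelled HepG2, a 2.33-fold difference on the log2(FPKM + 1) scale, and 3.77% of all genes considered there had a ratio at least as high. For a transcript of 1 kb the 95% counting interval of the plain ratio would be 2.12 to 2.87. In Huh7 the log2 ratio of MDM2 was 0.29, and 34.8% of genes were at least as high. MDM4 stood at 5.67 and 4.65 FPKM in treated and untreated cells labelled HepG2, and at 6.59 and 6.29 FPKM in treated and untreated Huh7. Its log2 ratios were 0.24 and 0.06, so the 4 libraries lay close together.

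PPM1D encodes a phosphatase that removes activating phosphates from p53 and its upstream kinases. It stood at 4.20 FPKM in treated and 6.38 FPKM in untreated cells labelled HepG2, and at 3.75 FPKM in treated and 5.75 FPKM in untreated Huh7. Both treated libraries were below both untreated ones, and the log2 ratio was −0.51 in either line, short of 2-fold. CCNG1 encodes cyclin G1, which works with a phosphatase to activate MDM2, and had log2 ratios of −0.16 in cells labelled HepG2 and 0.32 in Huh7 at levels of 24.7 to 32.3 FPKM. In all, 1 of 4 inhibitors was 2-fold higher in cells labelled HepG2, beside 6.7% of all genes, and 0 of 4 in Huh7, beside 3.88%.

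Death receptors sit on the cell surface and start caspase activation when their ligands bind. TNFRSF10B (ENSG00000120889, GRCh38 chr8:23020133-23069031), which encodes the receptor DR5 for the ligand TRAIL, stood at 100.2 FPKM in treated and 43.8 FPKM in untreated cells labelled HepG2. In Huh7 it stood at 46.0 FPKM treated and 52.0 FPKM untreated. The treated library labelled HepG2 stood apart from the other 3, which lay within 43.8 to 52.0 FPKM. The log2 ratios were 1.18 in cells labelled HepG2 and −0.17 in Huh7, and 4.23% of genes considered in cells labelled HepG2 were at least as high. TNFRSF10B was the most abundant of the 30 genes in 3 of the 4 libraries, and PLK2 and CMBL were above it in untreated cells labelled HepG2.

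The other receptors of that cluster on chromosome 8 were measured in both lines except for TNFRSF10C, which was under 1 FPKM in Huh7. TNFRSF10A, which encodes the second signalling TRAIL receptor, stood at 18.3 and 13.2 FPKM in treated and untreated cells labelled HepG2, and at 11.8 and 14.9 FPKM in treated and untreated Huh7. TNFRSF10D, a decoy receptor that binds TRAIL without a full death signal, stood at 16.4 and 10.1 FPKM in treated and untreated cells labelled HepG2, and at 9.19 and 12.0 FPKM in treated and untreated Huh7. TNFRSF10C, a decoy receptor held on the membrane by a lipid anchor, stood at 3.36 and 2.33 FPKM in treated and untreated cells labelled HepG2, against 0.0625 and 0.0704 FPKM in treated and untreated Huh7. The log2 ratios of TNFRSF10A, TNFRSF10D and TNFRSF10C were 0.45, 0.65 and 0.39 in cells labelled HepG2, none past 2-fold. TNFRSF10C is uncertain, since 13.3% of its exonic bases overlap the coding gene AC107959.5 and 26% a noncoding gene. TNFRSF10A is uncertain too, since 9.0% of its exonic bases overlap the noncoding gene AC100861.1 and 7.6% the antisense gene TNFRSF10A-AS1. In Huh7 the log2 ratios of TNFRSF10A and TNFRSF10D were −0.32 and −0.35. These genes share sequence as one family, and the labels do not say how reads that fit several of them were counted.

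FAS encodes the receptor for FAS ligand, another trigger of the same caspases. It stood at 7.68 FPKM in treated and 5.46 FPKM in untreated cells labelled HepG2, and at 0.0607 FPKM in treated and 0.0732 FPKM in untreated Huh7. FAS was thus read in cells labelled HepG2 and lay near 0 in Huh7. Its log2 ratio was 0.43 in cells labelled HepG2. FAS is uncertain, since 8.9% of its exonic bases overlap the coding gene ACTA2 on the opposite strand. ACTA2 stood at 5.23 FPKM in treated and 1.22 FPKM in untreated cells labelled HepG2. EDA2R, a receptor for ectodysplasin A2, stood at 0.0374 FPKM or less in all 4 libraries. Across the considered death receptors, 5 of 5 log2 ratios were above 0 in cells labelled HepG2 (median 0.45) and 3 of 3 were below 0 in Huh7 (median −0.32). Over all coding genes considered, 56.9% were above 0 in cells labelled HepG2 and 41.2% were below 0 in Huh7. These signs were the same after rescaling each library to 1 FPKM sum and with size factors. Only TNFRSF10B in cells labelled HepG2 passed 2-fold, 1 of 5 genes there, beside 6.7% of all genes.

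**Figure D2:**
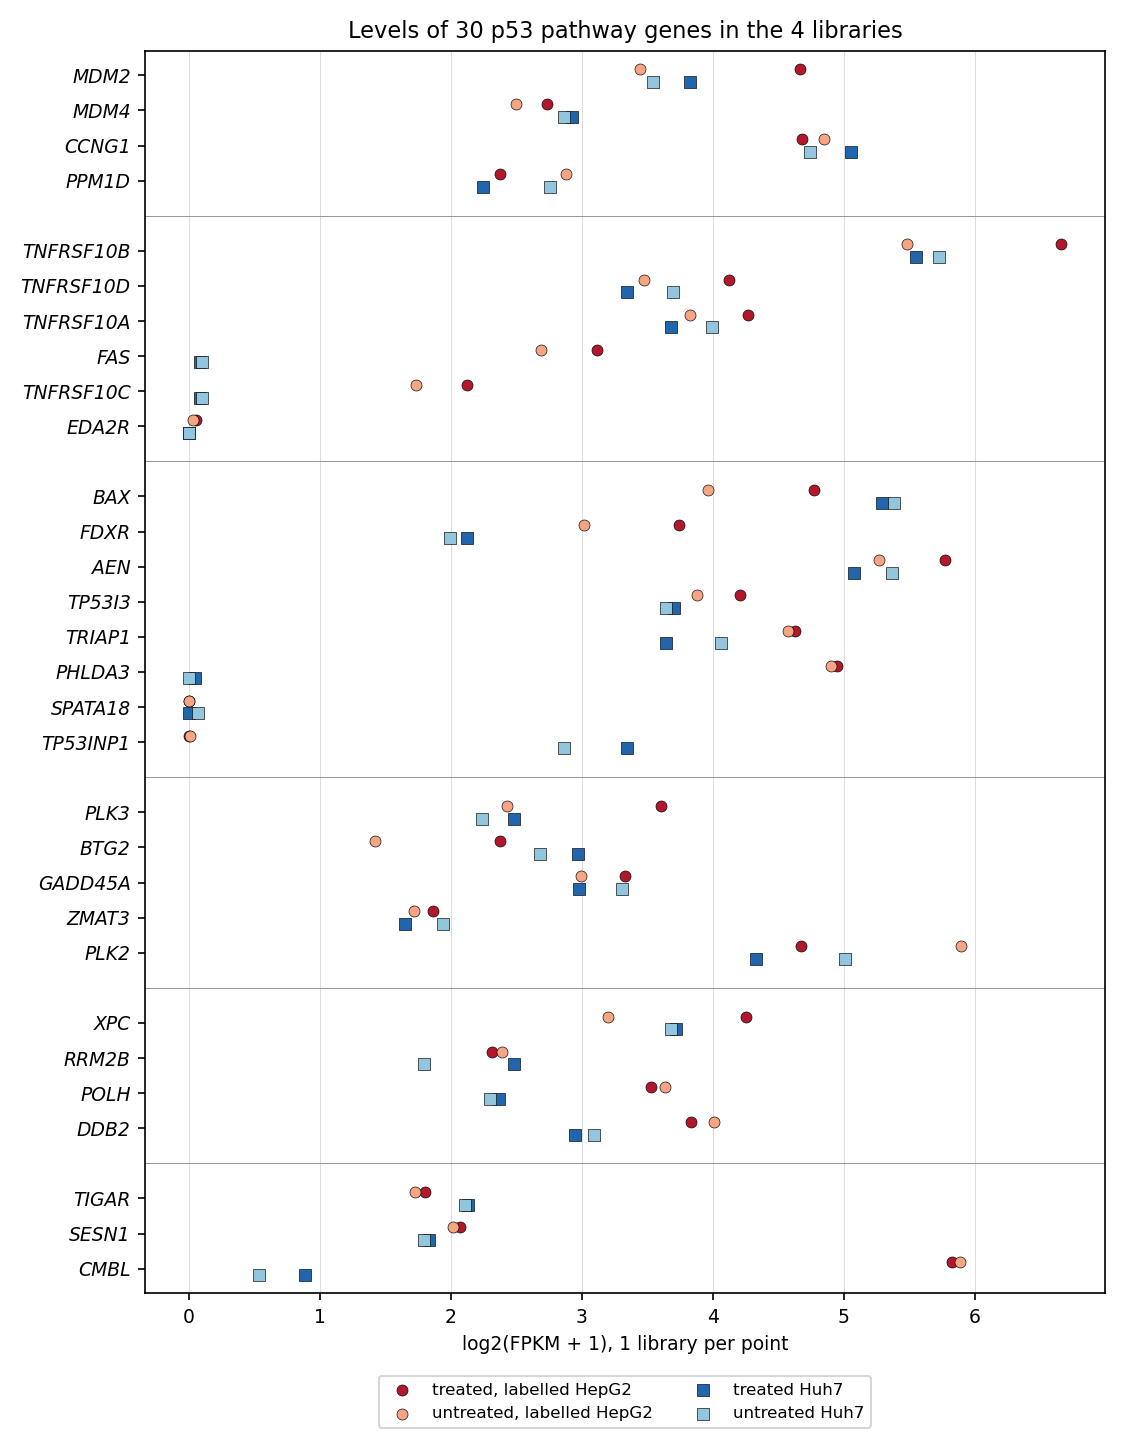
Level of each of the 30 genes in each library (x axis, log2 of FPKM + 1), grouped by role, with circles for libraries labelled HepG2 and squares for Huh7 in dark colour when treated and light colour when untreated. FAS, TNFRSF10C, PHLDA3 and CMBL are separated by line, TP53INP1 is separated the other way, and EDA2R and SPATA18 lie near 0 throughout.

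Among genes of mitochondria and apoptosis, BAX encodes the protein that opens the outer mitochondrial membrane. BAX stood at 26.3 FPKM in treated and 14.6 FPKM in untreated cells labelled HepG2, and at 38.3 FPKM in treated and 40.8 FPKM in untreated Huh7. Both Huh7 libraries were above both libraries labelled HepG2, and the treated and untreated Huh7 values were close. The log2 ratios were 0.81 and −0.09. FDXR encodes ferredoxin reductase, a mitochondrial enzyme that passes electrons for iron-sulphur cluster and steroid synthesis and has been linked to p53 and to ferroptosis. FDXR stood at 12.4 and 7.11 FPKM in treated and untreated cells labelled HepG2, and at 3.35 and 2.98 FPKM in treated and untreated Huh7, with log2 ratios of 0.72 and 0.13. AEN, a nuclease that degrades DNA in dying cells, stood at 53.8 and 37.7 FPKM in treated and untreated cells labelled HepG2, and at 32.7 and 40.3 FPKM in treated and untreated Huh7. Its log2 ratios were 0.50 and −0.29, which is higher in the first treated library and lower in the second, both short of 2-fold.

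TP53I3, a quinone oxidoreductase tied to reactive oxygen, had log2 ratios of 0.33 in cells labelled HepG2 and 0.06 in Huh7. TRIAP1, which restrains apoptosis in mitochondria, had log2 ratios of 0.06 and −0.42. PHLDA3 encodes an inhibitor of the survival kinase AKT. It stood at 29.9 FPKM in treated and 28.9 FPKM in untreated cells labelled HepG2, and at 0.0331 FPKM in treated Huh7, and it was listed at 0 in untreated Huh7. TP53INP1, which promotes p53 phosphorylation and autophagy, showed the opposite split. It was listed at 0 in treated cells labelled HepG2 and stood at 0.00691 FPKM in untreated ones, against 9.16 FPKM in treated and 6.29 FPKM in untreated Huh7. SPATA18, a gene of mitochondrial quality control, was listed at 0 in 3 libraries and stood at 0.0503 FPKM in untreated Huh7. In cells labelled HepG2, 0 of 6 considered genes of this group passed 2-fold, beside 6.7% of all genes higher and 2.43% lower. In Huh7 it was 0 of 6, beside 3.88% and 2.19%. PHLDA3 was considered only in cells labelled HepG2 and TP53INP1 only in Huh7. PHLDA3 is uncertain, since 19.1% of its exonic bases overlap the noncoding gene AC096677.2 on the same strand.

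Among genes of growth arrest, 1 of 5 was 2-fold higher and 1 of 5 was 2-fold lower in cells labelled HepG2. The shares of all genes were 6.7% and 2.43%. PLK3 (ENSG00000173846, GRCh38 chr1:44800377-44805990) encodes a stress-activated kinase that can phosphorylate p53. It stood at 11.2 FPKM in treated and 4.38 FPKM in untreated cells labelled HepG2, and at 4.57 FPKM in treated and 3.71 FPKM in untreated Huh7. The treated library labelled HepG2 was apart from the other 3, and the log2 ratios were 1.18 and 0.24. PLK2 (ENSG00000145632, GRCh38 chr5:58453982-58460139) encodes a kinase of centriole duplication that p53 is known to activate. PLK2 stood at 24.5 FPKM in treated and 58.5 FPKM in untreated cells labelled HepG2, and at 19.1 FPKM in treated and 31.2 FPKM in untreated Huh7. Both treated libraries were below both untreated ones. The log2 ratios were −1.22 and −0.68. As few as 1.22% of genes in cells labelled HepG2 and 5.6% in Huh7 had a ratio as low. For a transcript of 1 kb the 95% counting interval of the plain ratio would be 0.38 to 0.46 in cells labelled HepG2 and 0.55 to 0.69 in Huh7.

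BTG2 encodes an antiproliferative protein that acts on messenger RNA decay. It stood at 4.18 FPKM in treated and 1.68 FPKM in untreated cells labelled HepG2, and at 6.84 FPKM in treated and 5.40 FPKM in untreated Huh7. Its log2 ratio of 0.95 in cells labelled HepG2 was just short of 2-fold and became 1.27 with a pseudocount of 0.1. In Huh7 it was 0.29. GADD45A, a stress protein of cell cycle arrest and repair, stood at 9.09 and 6.99 FPKM in treated and untreated cells labelled HepG2, and at 6.87 and 8.88 FPKM in treated and untreated Huh7. The log2 ratios of 0.34 and −0.33 have opposite signs. ZMAT3, an RNA-binding protein, had log2 ratios of 0.14 and −0.29 at 2.14 to 2.83 FPKM.

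Among genes of DNA repair, XPC encodes the protein that finds distorted DNA for nucleotide excision repair. XPC (ENSG00000154767, GRCh38 chr3:14145147-14178783) stood at 18.1 FPKM in treated and 8.21 FPKM in untreated cells labelled HepG2, and at 12.2 FPKM in treated and 11.8 FPKM in untreated Huh7. The treated library labelled HepG2 was the highest and the untreated one the lowest of the 4. The log2 ratio of XPC in cells labelled HepG2 was 1.05, and it was 0.94 with size factors, short of 2-fold. XPC is uncertain because 23.8% of its exonic bases overlap the antisense gene AC093495.1 and the labels do not say whether strand was kept. The transcripts of AC093495.1 summed to 0.156 FPKM in treated and 0.281 FPKM in untreated cells labelled HepG2. The coding gene AC090004.1, on the opposite strand, overlaps 8.6% of the exonic bases of XPC and has no value here. The coding gene LSM3, also on the opposite strand, overlaps 6.6% of them. LSM3 stood at 16.9 and 23.4 FPKM in treated and untreated cells labelled HepG2, and at 24.4 and 34.5 FPKM in treated and untreated Huh7. In Huh7 the log2 ratio of XPC was 0.04.

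The remaining repair genes had log2 ratios within 0.2 of 0 in cells labelled HepG2. DDB2, which recognises ultraviolet damage and whose window holds the closest match above, stood at 13.3 FPKM in treated and 15.1 FPKM in untreated cells labelled HepG2, and at 6.70 FPKM in treated and 7.55 FPKM in untreated Huh7. POLH, a polymerase that copies past damage, had log2 ratios of −0.11 and 0.07. RRM2B encodes a subunit of ribonucleotide reductase that supplies nucleotides for repair. RRM2B stood at 3.96 FPKM in treated and 4.25 FPKM in untreated cells labelled HepG2, and at 4.58 FPKM in treated and 2.48 FPKM in untreated Huh7. Untreated Huh7 was the lowest of the 4 libraries, and the log2 ratio of RRM2B in Huh7, 0.68, was the highest of the 24 genes considered there.

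The redox and metabolic genes lay close between treated and untreated cells. SESN1, a sestrin that limits mTORC1 signalling, had log2 ratios of 0.05 in cells labelled HepG2 and 0.04 in Huh7 at 2.47 to 3.20 FPKM. An antisense gene overlaps 7.1% of the exonic bases of SESN1. TIGAR, a phosphatase that steers glucose towards the pentose phosphate pathway and NADPH, had log2 ratios of 0.08 and 0.02 at 2.31 to 3.38 FPKM. TIGAR is uncertain, since 42.6% of its exonic bases overlap the coding gene AC008012.1 on the same strand. CMBL, a hydrolase, stood at 55.9 FPKM in treated and 58.3 FPKM in untreated cells labelled HepG2, and at 0.849 FPKM in treated and 0.453 FPKM in untreated Huh7. With size factors all 3 of these genes were below 0 in cells labelled HepG2 (median −0.04).

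Of the 23 genes considered in both lines, the log2 ratio was above 0 in both for 9, below 0 in both for 3 and of opposite sign for 11 (47.8%). Over the 10758 coding genes considered in both lines, 38.5% were above 0 in both, 23.3% below 0 in both and 38.2% of opposite sign. With either rescaling the number of opposite sign was 12. Within each line the signs did move with size factors. Ratios above 0 went from 20 to 16 of 27 in cells labelled HepG2 and from 13 to 7 of 24 in Huh7. In 18 of the 23 (78.3%) the ratio was greater in cells labelled HepG2 than in Huh7, beside 48% of all genes. The difference between the lines was not tested, since each has 1 library per condition.

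**Figure D3:**
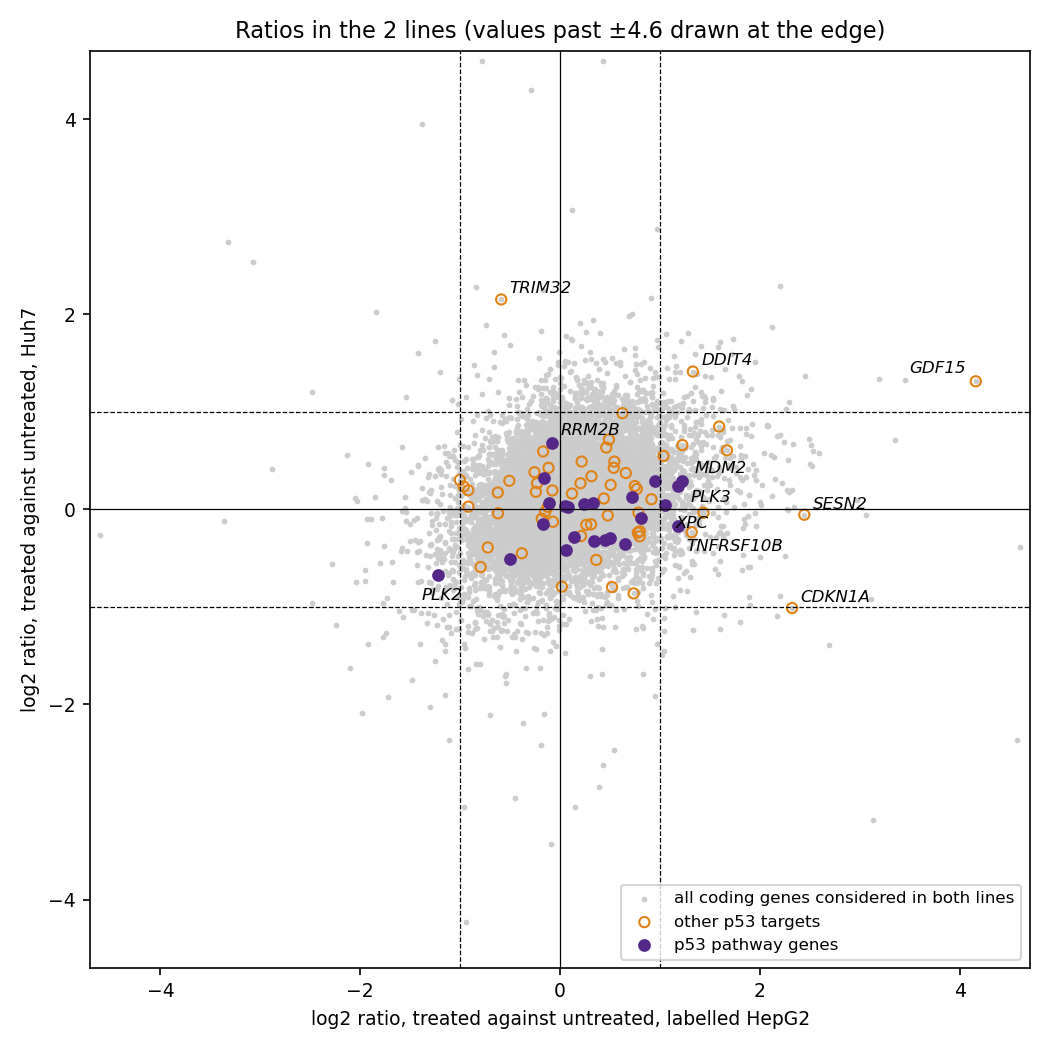
Treated against untreated log2 ratios in cells labelled HepG2 (x axis) and in Huh7 (y axis), with filled points for p53 pathway genes, open circles for other p53 targets, grey points for all coding genes considered in both lines and dashed lines at 2-fold. MDM2, TNFRSF10B, PLK3 and XPC lie right of the vertical line and near 0 in Huh7, PLK2 lies low on both axes, and CDKN1A lies at 2.32 and −1.01.

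Without treatment, CMBL, PHLDA3, FAS and TNFRSF10C were read in cells labelled HepG2 and lay under 1 FPKM in Huh7, and TP53INP1 did the reverse. In untreated Huh7 against untreated cells labelled HepG2, 3 of 28 considered genes were at least 2-fold higher (10.7%), beside 17.5% of all 12446 coding genes, and 6 of 28 were at least 2-fold lower (21.4%), beside 17.2%. The higher ones were TP53INP1, BAX and BTG2, with log2 ratios of 2.86, 1.42 and 1.26. The lower ones were CMBL, PHLDA3, FAS, TNFRSF10C, POLH and FDXR, with log2 ratios of −5.35, −4.90, −2.59, −1.64, −1.34 and −1.03. With size factors FDXR was short of 2-fold (−0.96), which left 5 lower genes. CMBL stood at 0.453 FPKM in untreated Huh7 and at 58.3 FPKM in untreated cells labelled HepG2. POLH stood at 3.92 FPKM in untreated Huh7 and at 11.4 FPKM in untreated cells labelled HepG2. MDM2 had a log2 ratio of 0.09 here and TNFRSF10B of 0.24, so these genes lay close together in both untreated lines. At 1.5-fold, 3 of 28 genes were higher (10.7%), beside 26.2% of all genes, and 9 of 28 were lower (32.1%), beside 29.2%.

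**Figure D4:**
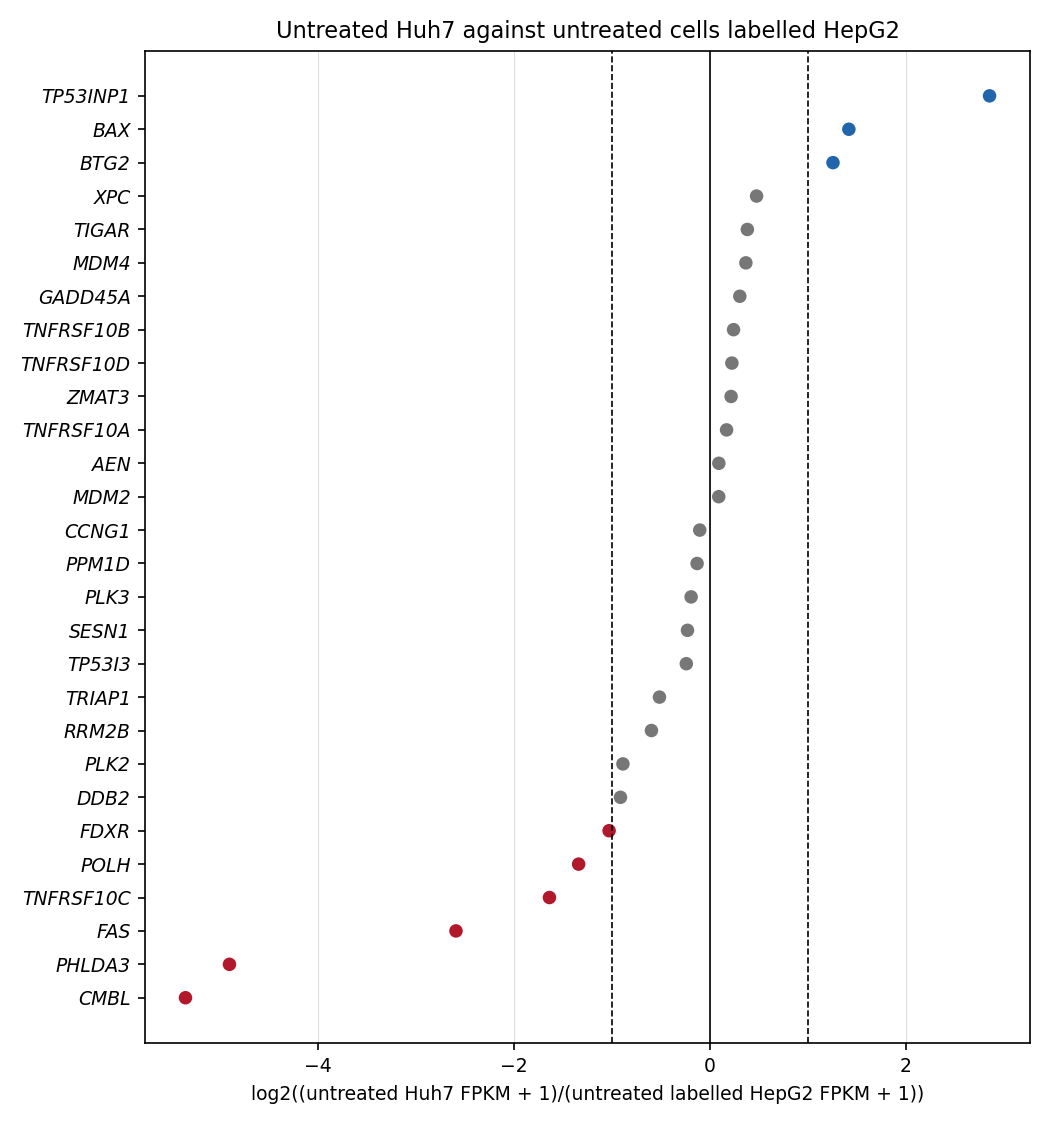
Log2 ratio of untreated Huh7 over untreated cells labelled HepG2 (x axis, log2 of FPKM + 1) for the 28 genes considered, in order, with dashed lines at 2-fold. TP53INP1, BAX and BTG2 lie past the upper line, and FDXR, POLH, TNFRSF10C, FAS, PHLDA3 and CMBL past the lower one.

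Other known p53 targets were taken from a list of 70 genes outside the 30, also chosen with earlier results of these data known. In cells labelled HepG2, 12 of 63 considered were at least 2-fold higher (19%) and 1 was lower, beside 6.7% and 2.43% of all genes. With size factors the split was 10 higher and 4 lower. In Huh7, 3 of 59 were higher (5.08%) and 1 was lower, beside 3.88% and 2.19%. The medians were 0.46 in cells labelled HepG2 and 0.18 in Huh7, against 0.09 and 0.10 over all genes. CDKN1A encodes p21, the inhibitor of cyclin-dependent kinases through which p53 arrests the cycle. It stood at 162 FPKM in treated and 31.6 FPKM in untreated cells labelled HepG2, and at 6.07 FPKM in treated and 13.3 FPKM in untreated Huh7. CDKN1A was thus 2-fold higher in one treated line and 2-fold lower in the other, with log2 ratios of 2.32 and −1.01. SESN2, a sestrin that is also a target of the stress factor ATF4, stood at 28.6 and 4.43 FPKM in treated and untreated cells labelled HepG2, and at 8.57 and 8.95 FPKM in treated and untreated Huh7.

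GDF15, a secreted stress cytokine, and DDIT4, an inhibitor of mTORC1, were 2-fold higher in both lines. GDF15 had log2 ratios of 4.16 and 1.31, and DDIT4 of 1.33 and 1.41. Both are also known targets of stress factors other than p53. TRIM32, a ubiquitin ligase gene, had log2 ratios of −0.59 in cells labelled HepG2 and 2.15 in Huh7, where it stood at 7.41 FPKM treated and 0.893 FPKM untreated.

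The relatives and upstream regulators of p53 were within 2-fold. Of 23 considered in cells labelled HepG2, 0 were 2-fold higher and 0 lower (median −0.04), beside 6.7% and 2.43% of all genes. In Huh7 it was also 0 higher and 0 lower of 23 (median 0.09), beside 3.88% and 2.19%. ATM, the kinase that signals DNA breaks to p53, had log2 ratios of 0.13 and 0.92, and PRKDC, another kinase of break repair, 0.17 and −0.84. AURKA, a mitotic kinase that can phosphorylate p53, had −0.34 in cells labelled HepG2 and 0.82 in Huh7. TP73, a relative of p53, had a log2 ratio of 0.54 in cells labelled HepG2, where PPP1R13L and PPP1R13B, which encode proteins of the ASPP family that bind p53, had −0.58 and 0.58.

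Active p53 is known to lower many cell cycle genes through p21 and the DREAM complex, a repressor of E2F and mitotic genes. Of 20 such genes, 0 were 2-fold higher and 0 lower in cells labelled HepG2, beside 6.7% and 2.43% of all genes. The median was −0.22, and 14 of 20 were below 0, beside 43.1% of all genes. In Huh7, 1 of 20 was 2-fold higher (5%) and 1 lower (5%), beside 3.88% and 2.19%. The median there was 0.45, and 14 of 20 were above 0, beside 58.8% of all genes. CDK1, the kinase that starts mitosis, stood at 44.5 and 82.3 FPKM in treated and untreated cells labelled HepG2, and at 60.6 and 31.9 FPKM in treated and untreated Huh7. The treated library was the lower one in the first line and the higher one in the second. KIF23, a motor protein of cell division, had log2 ratios of −0.70 and 0.70. CENPF, a centromere protein, was the 2-fold higher gene in Huh7 with a log2 ratio of 1.52, and PLK1, a mitotic kinase, had 0.99. MCM5, part of the replication helicase, was the 2-fold lower one there, with log2 ratios of −0.72 in cells labelled HepG2 and −1.07 in Huh7.

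The authors' deposited tables of enriched pathways for treated against untreated cells list the p53 signaling pathway in both lines. In the authors' deposited table for cells labelled HepG2, 13 of 68 pathway genes were among the authors' input genes, with a p-value of 0.549 and a corrected p-value of 1. In the authors' deposited table for Huh7 it was 11 of 68 genes, with a p-value of 0.413 and a corrected p-value of 0.983. None of the 30 genes is among the pathway genes that the authors' deposited table names in either line. CDKN1A is named in both lines, and BBC3 and SESN2 for cells labelled HepG2. Over all Gene Ontology terms, the authors' deposited table for cells labelled HepG2 holds 3 of the 30 genes among 3213 input genes, namely PLK2, PLK3 and TP53INP1. For Huh7 the authors' deposited table holds 2 of the 30 among 2438, namely PLK2 and SPATA18. For scale, 19739 coding genes were measured, and these counts are not read as a result about the 30 genes. TP53INP1 in cells labelled HepG2 and SPATA18 in Huh7 were under the minimum of 1 FPKM used here. No source used here says how the authors chose these input genes.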

How the data were processed

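Values are FPKM as the authors deposited them, in 1 table of coding genes and 1 of noncoding transcripts; all columns of sample values were used. Tools listed without roles in the submitters' processing notes include StringTie 1.3.1 and HISAT2, then Cuffdiff 2.1.1 and Bowtie2 2.2.8, and also GATK, SAMtools 0.1.18 and Picard 1.96. The authors also deposited enrichment tables with p-values and gene counts per term, per the file headers. No source used here names the build. Listed positions overlapped the same gene of GENCODE 29 (GRCh38) for 99.93% of 19664 shared identifiers.

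Count models do not suit FPKM and were left out. Ratios used a pseudocount of 1, a minimum of 1 FPKM in at least 1 of 2 libraries and a threshold of 2-fold. The only test was limma (version 3.58.1, under R 4.3.3), fitted to log2(FPKM + 1) with cell line as a block and an intensity trend. A check on simulated data used equal noise in all libraries and changes alike in both lines. It required only the right sign and size of the estimates, so it does not cover lines that respond differently. Fragments were inferred from the most common low value of FPKM times length in genes with 1 transcript, and intervals are 95%. Alternatives were a pseudocount of 0.1, no minimum or 5 FPKM, 2 other scalings, 1.5-fold, no trend and no block.

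The 30 genes and the other lists were chosen with earlier results of these data known, and 1 gene of the upstream list is not reported here. The naming rule asked for values per library of genes past 2-fold in either line, MDM2, MDM4, the TNFRSF10 receptors and, in a role group with none of these, its most abundant gene. From the other lists it took genes past 2-fold alike in both lines and the 3 with the largest absolute ratio in each line. Values per library of further genes among the 30 were added after they had been seen. Values came from Python 3.11.15 with pandas 2.3.3 and scipy 1.17.1.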

Additional observations from a re-analysis of the deposited data

Results flagged for a closer look

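Several genes were higher in one treated line and lower in the other, with the higher FPKM + 1 at least 25% above the lower in each line, and these differences were not tested, since each line has 1 library per condition. The log2 ratio in Huh7 minus that in cells labelled HepG2 was −1.00 for TNFRSF10D and −0.67 for GADD45A among the 30 genes. Among other genes named above it was −3.33 for CDKN1A, 2.74 for TRIM32, 1.15 for AURKA, 1.78 for CDK1 and 1.40 for KIF23. In the table of noncoding transcripts, NEAT1, a long noncoding RNA of nuclear paraspeckles that p53 is known to induce, was higher in both treated libraries. Its 8 transcripts summed to 6.01 FPKM in treated and 2.28 FPKM in untreated cells labelled HepG2, and to 8.43 FPKM in treated and 1.40 FPKM in untreated Huh7. The log2 ratios were 1.09 and 1.98.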

How the results depend on the processing

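Log2 ratios of single p53 genes were recomputed under 3 settings, 51 ratios in each. Direction was checked only for ratios past 2-fold, and none of those turned. Several ratios near 0 changed sign with size factors. For SESN1 the ratio went from 0.05 to −0.04 in cells labelled HepG2 and from 0.04 to −0.07 in Huh7. XPC in cells labelled HepG2 was short of 2-fold with size factors (0.94), and BTG2 there passed it with a pseudocount of 0.1 (1.27). At 1.5-fold the counts were 8 higher in cells labelled HepG2, and 1 higher and 1 lower in Huh7. The median of the p53 genes in cells labelled HepG2 was 0.33, but 0.19 with no filter and 0.22 with size factors. In Huh7 it was 0.03, but −0.15 at a minimum of 5 FPKM and −0.10 with size factors, so its sign depends on these settings. A filter changes which genes enter (17 at 5 FPKM), and the cause was not tested further. Under all 7 alternatives limma called 0 of the p53 genes, with a smallest adjusted p of 0.223 to 1. Over all genes limma called 0, but 1 at a minimum of 5 FPKM and 1 with equal FPKM sums. With no replicate block (cell line left out), limma called 0 of 28. The labels carry no replicate numbers, and libraries are paired by cell line alone. Genes under 1 FPKM rest on few fragments, and their ratios are not interpreted.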

Other observations

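Of 12 noncoding genes linked to p53 in a list written for this purpose, 8 had transcripts in the noncoding table. Beside NEAT1, PVT1, the noncoding neighbour of MYC, summed to 26.2 FPKM in treated and 13.7 FPKM in untreated cells labelled HepG2, and to 2.46 FPKM in treated and 1.88 FPKM in untreated Huh7. Both libraries labelled HepG2 were above both Huh7 libraries. TP53TG1, a transcript named as a p53 target, summed to 1.42 FPKM in treated and 2.31 FPKM in untreated cells labelled HepG2, and to 9.73 FPKM in treated and 8.66 FPKM in untreated Huh7. MIR34AHG, the host transcript of the p53 target miR-34a, was 1.56 and 1.57 FPKM in treated and untreated cells labelled HepG2, and 0.583 and 0.744 FPKM in treated and untreated Huh7. MEG3, a noncoding RNA reported to raise p53, was listed at 0 in all 4 libraries.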
